A study of Homo sapiens with 4 samples.

Results

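The zinc finger genes of chromosome 19 were examined in RNA sequencing of 2 human bladder cancer cell lines. The members were the genes with a ZNF name and number, located on chromosome 19, that reached 1 read per 1000000 assigned reads (RPM) in any library. They numbered 223 of the 250 such genes in the table, which lists 32973 genes in all, and 17271 genes of any kind passed the same floor. Of the members, 216 were annotated as protein-coding and 7 as transcribed pseudogenes. The rule also asked for silencing in 1 line along the gene clusters, so the difference between the lines chose the theme and is given as a description, with no test.

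Transcripts were measured in T24T cells with a BCUC-1 plasmid, T24T cells with the empty vector, UMUC3 cells with the BCUC-1 plasmid and UMUC3 cells with the empty vector, with 1 library for each. T24T is a derivative of the bladder carcinoma line T24, and UMUC3 comes from another bladder carcinoma. BCUC-1 is a circular RNA that was introduced by stable transfection, and the study set out to screen for genes downstream of it. Each group held 1 library, so no difference has a replicate check, and nothing in the labels says whether a transfected line was a pool or 1 clone.

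The libraries held 23588847 assigned reads in T24T BCUC-1, 23679229 in T24T vector, 22730112 in UMUC3 BCUC-1 and 26497894 in UMUC3 vector. The epithelial markers KRT8 and KRT18 were present in all 4 libraries, and the 10 listed urothelial and epithelial markers summed to 262 and 245 reads per kilobase and per 1000000 reads (RPKM) in T24T BCUC-1 and vector, against 59.6 and 57.2 RPKM in UMUC3. CDH1, the epithelial cadherin, was at or under 0.00686 RPKM in each library, and GATA3, a urothelial transcription factor, at or under 0.287 RPKM. The 4 mesenchymal markers summed to 99.9 and 95.5 RPKM in T24T and to 295 and 263 RPKM in UMUC3. Most of this sum was VIM, with 87.0 and 82.9 RPKM in T24T and 267 and 234 RPKM in UMUC3. ZEB1 was also higher in UMUC3, whereas CDH2 and FN1 were higher in T24T. The 3 fibroblast markers summed to at most 0.534 RPKM and the 2 endothelial markers to at most 0.0425 RPKM in a library. CD68, a lysosomal protein listed as a leukocyte marker, had 6.78 and 7.45 RPKM in T24T and 124 and 119 RPKM in UMUC3, and PTPRC and CD3E are not analysed here.

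Most of these genes encode KRAB zinc finger proteins. Such a protein reads DNA through a row of zinc fingers, and its KRAB domain recruits the corepressor TRIM28, which brings the histone methyltransferase SETDB1 and heterochromatin proteins to the bound site. The best known targets are transposable elements, and the genes themselves lie in tandem clusters that grew by duplication. Promoter methylation and loss of expression of single zinc finger genes have been reported in several carcinomas. Because copies resemble each other, a short read can match more than one gene, and how such reads were assigned is not given in the sources used here.

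The promoters of 8 genes with a large difference between the lines, in either direction, are shown first. Each window is 300 bases long, from 250 bases before to 50 bases after the RefSeq start, read 5′ to 3′ on the gene's strand of GRCh38.p14. The first 4 genes lie in 1 cluster, and each was near silent in 1 line. ZNF682 (chr19:20039456-20039755, minus strand) and ZNF626 (chr19:20661522-20661821, minus strand) were low in UMUC3. ZNF43 (chr19:21836133-21836432, minus strand) and ZNF492 (chr19:22634074-22634373, plus strand) were low in T24T. Capitals mark the longest run of letters that all 4 windows share on the gene's strand, TCCAATCAGG.
ZNF682: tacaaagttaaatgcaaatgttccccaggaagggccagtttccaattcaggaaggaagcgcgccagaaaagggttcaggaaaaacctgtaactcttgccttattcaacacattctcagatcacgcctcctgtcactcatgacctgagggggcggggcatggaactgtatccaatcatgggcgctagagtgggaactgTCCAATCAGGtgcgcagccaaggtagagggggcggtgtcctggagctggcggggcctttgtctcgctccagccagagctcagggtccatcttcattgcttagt
ZNF626: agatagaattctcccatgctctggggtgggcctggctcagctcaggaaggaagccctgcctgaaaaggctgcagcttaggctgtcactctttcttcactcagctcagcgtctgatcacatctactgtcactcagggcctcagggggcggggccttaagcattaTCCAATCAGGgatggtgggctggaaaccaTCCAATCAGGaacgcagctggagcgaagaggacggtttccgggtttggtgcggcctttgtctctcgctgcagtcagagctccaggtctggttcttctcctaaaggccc
ZNF43: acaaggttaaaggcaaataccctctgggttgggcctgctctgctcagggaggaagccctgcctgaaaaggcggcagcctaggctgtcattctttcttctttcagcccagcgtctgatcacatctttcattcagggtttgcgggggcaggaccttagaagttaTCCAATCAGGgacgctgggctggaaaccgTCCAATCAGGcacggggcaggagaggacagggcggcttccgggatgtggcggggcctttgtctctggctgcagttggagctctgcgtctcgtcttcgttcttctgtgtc
ZNF492: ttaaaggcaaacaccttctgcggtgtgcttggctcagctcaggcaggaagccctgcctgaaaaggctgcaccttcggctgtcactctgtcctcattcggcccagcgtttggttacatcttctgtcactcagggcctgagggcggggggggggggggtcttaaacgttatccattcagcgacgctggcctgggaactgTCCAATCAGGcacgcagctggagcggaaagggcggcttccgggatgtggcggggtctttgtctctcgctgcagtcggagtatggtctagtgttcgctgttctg

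The 10-base run, searched on both strands, was present in 24 of the 26 RefSeq promoters of members of that cluster, in 15 of the 169 promoters of other members and in 122 of 35116 RefSeq promoters (0.347%). It holds the letters CCAAT, known as the CCAAT box of many promoters. Since the run was picked from 4 of the 26 promoters, the count among them is a description of how alike these duplicated promoters are. That the run stood before genes silent in T24T and genes silent in UMUC3 was fixed by the choice of these 4. The run also stood before genes transcribed in both lines. The RefSeq start of ZNF43 lay 15943 bases inside the gene as the table gives it, and those of ZNF682, ZNF626 and ZNF492 lay within 25 bases of the table's start.

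The second set of 4 promoters is shown for its CpG content, since CpG is the letter pair that DNA methylation acts on, and capitals mark each CG. Methylation itself was not measured. ZNF677 (chr19:53254774-53255073, minus strand) and ZNF528 (chr19:52397599-52397898, plus strand) were low in UMUC3. ZNF229 (chr19:44448423-44448722, minus strand) was low in T24T. ZNF568 (chr19:36916082-36916381, plus strand) shares its start region with ZNF829 on the other strand. Both of these were lower in UMUC3 but above the limit for near silent, which is under 0.1 RPM in both libraries of a line.
ZNF677: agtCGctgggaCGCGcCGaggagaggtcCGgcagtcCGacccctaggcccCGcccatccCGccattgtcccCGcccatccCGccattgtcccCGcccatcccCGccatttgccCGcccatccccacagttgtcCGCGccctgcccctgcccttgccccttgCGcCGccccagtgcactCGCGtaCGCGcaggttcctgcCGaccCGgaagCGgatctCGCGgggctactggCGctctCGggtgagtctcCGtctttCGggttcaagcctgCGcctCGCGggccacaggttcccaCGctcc
ZNF528: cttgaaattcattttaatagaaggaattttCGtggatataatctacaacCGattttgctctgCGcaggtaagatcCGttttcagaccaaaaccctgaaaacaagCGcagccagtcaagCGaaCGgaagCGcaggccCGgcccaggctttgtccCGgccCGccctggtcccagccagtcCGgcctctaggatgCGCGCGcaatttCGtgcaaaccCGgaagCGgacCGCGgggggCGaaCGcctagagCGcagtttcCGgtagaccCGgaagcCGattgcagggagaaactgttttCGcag
ZNF229: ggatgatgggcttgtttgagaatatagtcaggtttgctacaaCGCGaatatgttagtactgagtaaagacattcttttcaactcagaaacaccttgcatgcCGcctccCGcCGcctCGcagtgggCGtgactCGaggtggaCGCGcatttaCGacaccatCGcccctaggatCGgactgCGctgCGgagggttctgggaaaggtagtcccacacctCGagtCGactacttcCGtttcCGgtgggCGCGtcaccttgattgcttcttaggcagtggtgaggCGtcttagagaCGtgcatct
ZNF568: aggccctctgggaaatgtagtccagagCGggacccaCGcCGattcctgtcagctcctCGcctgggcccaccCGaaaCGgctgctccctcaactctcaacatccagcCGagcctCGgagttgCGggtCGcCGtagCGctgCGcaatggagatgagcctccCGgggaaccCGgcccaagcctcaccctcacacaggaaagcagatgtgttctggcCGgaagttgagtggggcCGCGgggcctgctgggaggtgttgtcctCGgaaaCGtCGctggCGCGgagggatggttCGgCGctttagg

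These windows hold 34, 27, 23 and 25 CpG, whereas those of ZNF682, ZNF626, ZNF43 and ZNF492 hold 9, 8, 12 and 16. The windows of the 7 near silent genes among these 8 thus ran between 8 and 34 CpG. Over the 195 members with a RefSeq promoter the median was 20 CpG in 300 bases, against 14 over all 35116 RefSeq promoters.

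Across all members, levels were higher in T24T than in UMUC3. The reads of the 223 members summed to 2858 RPM in T24T BCUC-1 and 2966 RPM in T24T vector, against 1589 RPM in UMUC3 BCUC-1 and 1643 RPM in UMUC3 vector. The summed ratio of T24T to UMUC3 was 1.80 (95% interval 1.78 to 1.82). All intervals given here cover counting error only. The median member stood at 1.84 and 1.90 RPKM in T24T BCUC-1 and vector, and at 0.794 and 0.813 RPKM in UMUC3 BCUC-1 and vector. In T24T 216 of the 223 members reached 1 RPM in each library, while in UMUC3 184 did in the BCUC-1 library and 183 in the vector library. Of all 17271 genes, 15672 and 15891 did in T24T BCUC-1 and vector, and 15450 and 15300 in UMUC3 BCUC-1 and vector. The same level in any library was the floor for members, so these counts are a description. In cultures read in bulk, fewer cells with a transcript and less of it per cell cannot be told apart.

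The difference between the lines, taken as the mean log2(RPM + 0.1) of the T24T libraries minus that of the UMUC3 libraries, had a median of 1.09 over the members, or 2.12-fold. It was 1.06 between the BCUC-1 libraries and 1.13 between the vector libraries. The median over all 17271 genes was 0.14, and with the libraries scaled to equal medians the members' median was 0.96. On log2(RPKM + 1), a scale that shrinks the differences of genes with low levels, it was 0.58. Of the members, 188 were higher in T24T (84.3%), against 56.8% of all genes. Both T24T libraries lay above both UMUC3 libraries for 181 members (81.2%), against 50% of all genes, and below both for 25 (11.2%), against 36.8% of all genes, and for the other members the libraries of the lines overlapped.

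Large differences ran mostly in 1 direction. At least 2-fold higher in T24T in both the BCUC-1 and the vector pair were 111 members (49.8%), against 15.9% of all genes. At least 2-fold lower were 11 members (4.93%), against 10.8% of all genes. The 4-fold limit was passed upward by 40 members (17.9%; all genes 6.99%) and downward by 7 (3.14%; all genes 5.66%). Since the rule used this contrast, these shares describe the members and test nothing.

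**Figure D1:**
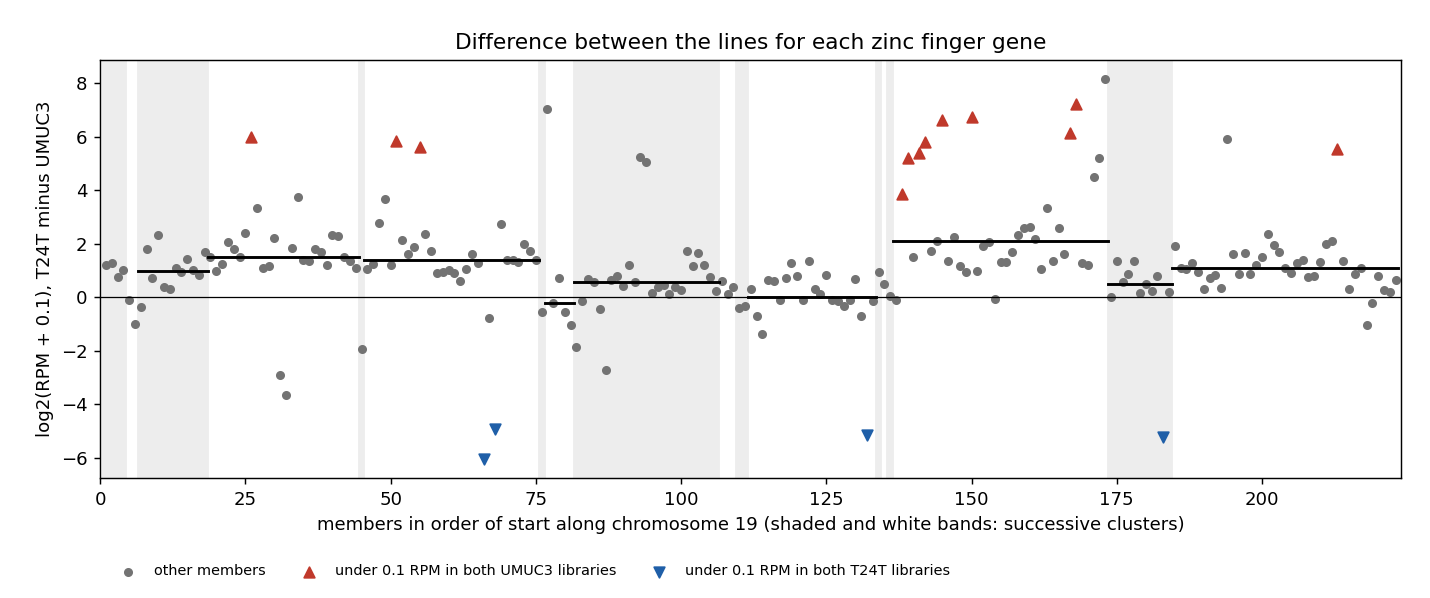
Each point is 1 of the 223 members in order of its start along chromosome 19, and the y axis is the difference in log2(RPM + 0.1), T24T minus UMUC3, of the means of 2 libraries. Bands are successive clusters, black bars are medians of clusters with 5 or more members, red triangles are the 12 members under 0.1 RPM in both UMUC3 libraries and blue triangles the 4 under 0.1 RPM in both T24T libraries. The band with the highest bar, at 2.12, holds 8 of the 12 red triangles.

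A gene was called near silent in a line when it was under 0.1 RPM in both of its libraries and at 1 RPM or more in both libraries of the other line. In UMUC3 12 members were near silent (5.38%), against 2.13% of all genes, and in T24T 4 were (1.79%), against 1.92% of all genes. All 16 stood in clusters of 5 or more members, as did 92.8% of all members. Where a line had 0 reads, the fold is given against a floor of 3 reads over its 2 libraries. This floor leaves out the counting error of the other line, and a fold given as "at least" is not a 95% limit. It is higher than the lower end of the 95% counting interval. That end was 74.9 for ZNF682, where the floor gives 92.7, and 17.6 for ZNF577, where the floor gives 22.2.

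Along the chromosome, the first member near silent in UMUC3 was ZNF439 (chr19:11848726-11883750, plus strand). It had 188 and 229 reads in T24T BCUC-1 and vector, against 1 and 1 in UMUC3 BCUC-1 and vector, a ratio of 217 (59.7 to 1799). ZNF682 (chr19:19997058-20039506, minus strand) had 108 and 159 reads in T24T, against 0 and 0 in UMUC3, so it was at least 92.7-fold higher in T24T. ZNF626 (chr19:20620061-20661596, minus strand) had 127 and 137 reads in T24T, against 0 and 1 in UMUC3. By the limits for near silence the T24T and the UMUC3 libraries of these genes were far apart. A single UMUC3 read made the difference between a ratio and a lower bound.

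A further 8 of the 12 lay within 1 cluster. ZNF577 (chr19:51871302-51887976, minus strand) had 31 and 33 reads in T24T BCUC-1 and vector, against 0 and 0 in UMUC3, at least 22.2-fold higher in T24T. Its neighbour ZNF649 (chr19:51889224-51905040, minus strand), reported to repress growth factor signalling, had 86 and 82 reads in T24T, against 0 and 0 in UMUC3, at least 58.3-fold higher in T24T. ZNF350 (chr19:51964343-51986856, minus strand), also called ZBRK1, a repressor that binds BRCA1, had 107 and 88 reads in T24T, against 0 and 0 in UMUC3, at least 67.7-fold higher in T24T. Of ZNF577, 41.6% of the exonic bases overlapped another listed gene, so its reads may belong in part to that gene. ZNF649 and ZNF350 had less than 10% overlap.

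ZNF615 (chr19:51991332-52008230, minus strand) had 175 and 177 reads in T24T, against 2 and 0 in UMUC3. ZNF841 (chr19:52064466-52095765, minus strand) had 205 and 262 reads in T24T, against 0 and 0 in UMUC3, at least 162-fold higher in T24T. ZNF528 (chr19:52397849-52418412, plus strand) had 376 and 431 reads in T24T, against 2 and 1 in UMUC3, a ratio of 280.2 (95.5 to 1361). In these 3 genes, as the limits for near silence require, both T24T libraries lay above both UMUC3 libraries.

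ZNF677 (chr19:53235381-53254898, minus strand), reported as methylated in lung cancer, had 179 and 207 reads in T24T BCUC-1 and vector, against 0 and 1 in UMUC3. ZNF525 (chr19:53330675-53392217, plus strand) had the most reads of the 12, with 492 and 475 in T24T and 2 and 0 in UMUC3, a ratio of 504 (139 to 4164). The last of the 12 stood in the cluster nearest the chromosome end. This was ZNF606 (chr19:57977053-58003349, minus strand), with 113 and 100 reads in T24T, against 0 and 0 in UMUC3, at least 73.9-fold higher in T24T.

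The 4 members near silent in T24T were spread over 3 clusters. ZNF43 (chr19:21804949-21852125, minus strand) had 2 and 1 reads in T24T BCUC-1 and vector, against 243 and 281 in UMUC3 BCUC-1 and vector, a ratio of UMUC3 to T24T of 168 (57.1 to 816). ZNF492 (chr19:22634324-22667670, plus strand) had 1 and 0 reads in T24T, against 71 and 105 in UMUC3. Of its 50-base windows, 31.5% also occurred in another gene, so its count is less certain. ZNF229 (chr19:44417519-44448578, minus strand) had 0 and 0 reads in T24T, against 74 and 97 in UMUC3, at least 54.7-fold lower in T24T. ZNF583 (chr19:56397966-56436035, plus strand) had 0 and 0 reads in T24T, against 79 and 102 in UMUC3, at least 57.9-fold lower in T24T. For all 16 genes the limits for near silence fix that the libraries of the lines do not overlap. They also fix that the BCUC-1 and vector libraries of the silent line are both low.

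**Figure D2:**
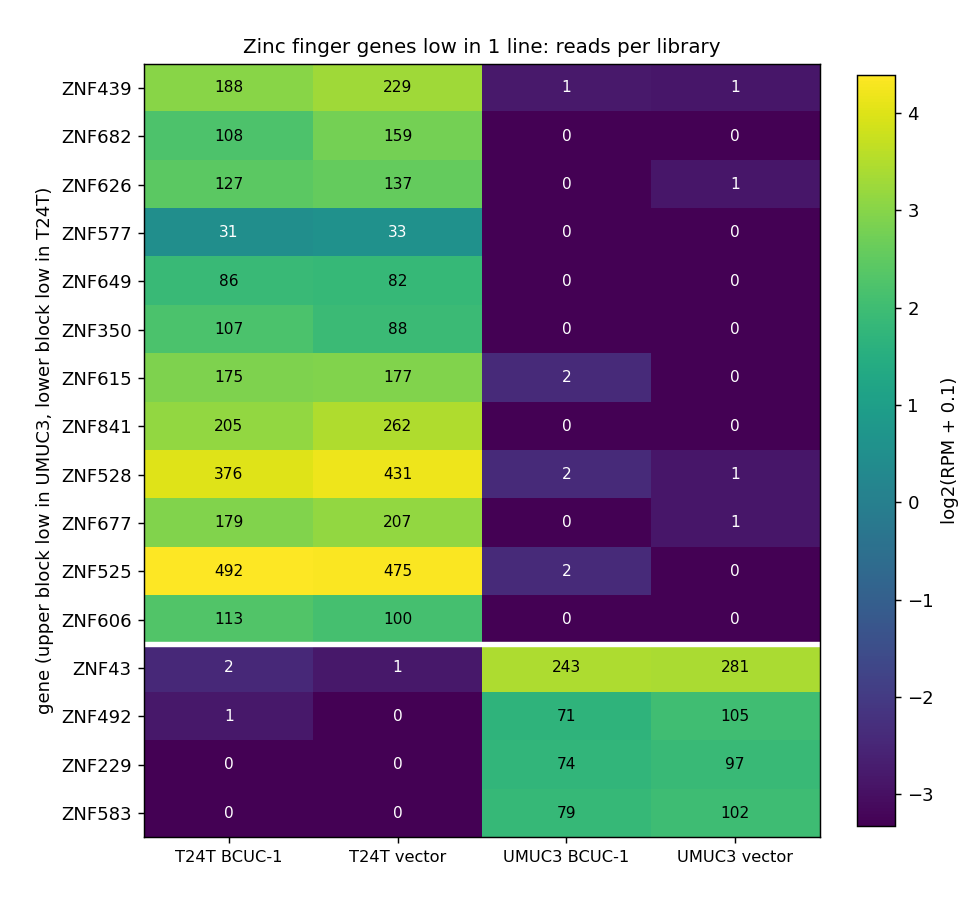
Rows are the 16 near silent members, the upper 12 low in UMUC3 and the lower 4 low in T24T, and columns are the 4 libraries. Colour gives log2(RPM + 0.1) and the number printed is the assigned reads, which were at most 2 in every library of the silent line.

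Other members came close to this limit without passing it. ZNF331 (chr19:53520981-53580269, plus strand), an imprinted gene, had the largest difference of all members, with 1133 and 1275 reads in T24T BCUC-1 and vector, against 3 and 1 in UMUC3, a ratio of 627 (245 to 2303). It missed the limit through the UMUC3 BCUC-1 library, at 0.132 RPM. ZNF302 (chr19:34677639-34686397, plus strand) had 783 and 825 reads in T24T, against 3 and 5 in UMUC3, a ratio of 209 (106 to 486). ZNF772 (chr19:57466663-57477570, minus strand) had 468 and 537 reads in T24T, against 5 and 8 in UMUC3, a ratio of 80.5 (46.9 to 152). With a limit of 0.2 RPM, ZNF302 and ZNF331 joined the 12 and ZNF844 joined the 4.

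Higher in UMUC3, after the 4 near silent genes, came ZNF788, a pseudogene, with 0.805 and 0.296 RPM in T24T BCUC-1 and vector, against 7.83 and 6.91 RPM in UMUC3. ZNF382, a KRAB repressor reported as methylated in several carcinomas, had 1.02 and 1.22 RPM in T24T and 7.79 and 8.04 RPM in UMUC3. ZNF333 had 4.92 and 5.79 RPM in T24T and 21.6 and 19.5 RPM in UMUC3. Their T24T libraries lay below both UMUC3 libraries, but the genes were read in both lines. The next in order were ZNF565, ZNF428, ZNF792, ZNF358 and ZNF257, with differences of -1.86, -1.38, -1.02, -1.01 and -0.76 on the log2 scale, T24T minus UMUC3. ZNF358 shared 34.4% of its exonic bases with 2 other listed genes, as a sum over both.

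Position along the chromosome was described by joining ZNF genes whose starts lay no more than 500 kb apart. This gave 18 clusters with members, of which 9 had 5 or more members and held 207 of the 223. The cluster from ZNF175 to ZNF331 spanned 51.6 to 53.6 Mb and held 37 members. Its median difference was 2.12, or 4.34-fold higher in T24T, 31 of the 37 were at least 2-fold higher in T24T in both pairs and none was 2-fold lower. The 2 members not higher in T24T were ZNF175, with 9.58 and 10.2 RPM in T24T BCUC-1 and vector against 9.72 and 11.3 RPM in UMUC3, and ZNF83, with 25.4 and 29.8 RPM in T24T against 29.7 and 27.7 RPM in UMUC3.

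**Figure D3:**
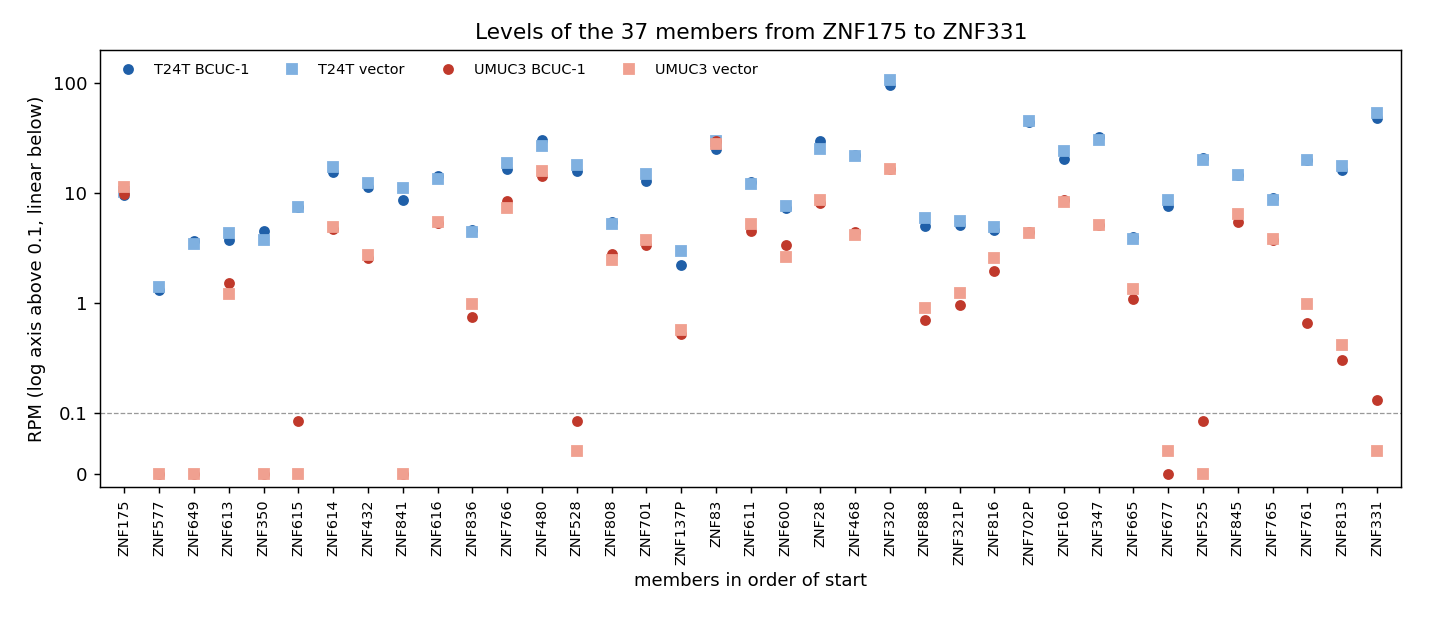
The x axis lists the 37 members from ZNF175 to ZNF331 in order of start, and the y axis gives RPM on a log scale above 0.1 and a linear scale below. Blue marks are the T24T libraries and red marks the UMUC3 libraries, circles BCUC-1 and squares vector. Both red marks lie under the dashed line at 0.1 RPM for 8 genes. Some of these stand in adjacent pairs, such as ZNF577 with ZNF649. ZNF841 and ZNF528 stand between genes with red marks above the line.

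The clusters differed in how far T24T stood above UMUC3. The cluster of 26 members from ZNF653 to ZNF791, at 11.5 to 12.6 Mb, had a median of 1.51, and the cluster of 30 from ZNF101 to ZNF254, at 19.7 to 24.1 Mb, had a median of 1.39. The 39 members from ZNF264 to ZNF446, at 57.2 to 58.5 Mb, had a median of 1.08, and the 12 from ZNF414 to ZNF846, at 8.5 to 9.8 Mb, a median of 0.98. In these 4 clusters the 2-fold limit was passed upward by 19 of 26, 22 of 30, 20 of 39 and 5 of 12 members.

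In the other long clusters the lines were closer. The median was 0.56 for the 25 members from ZNF565 to ZNF573 and 0.51 for the 11 from ZNF628 to ZNF71. The 22 members from ZNF575 to ZNF180, at 43.5 to 44.5 Mb, had a median of 0.01, with 11 of the 22 higher in T24T, and 2 members passed the 2-fold limit each way. The 5 members from ZNF302 to ZNF792 had a median of -0.20, with ZNF302 as the one gene far above it. The 16 members outside the long clusters had a median of 0.25.

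**Figure D4:**
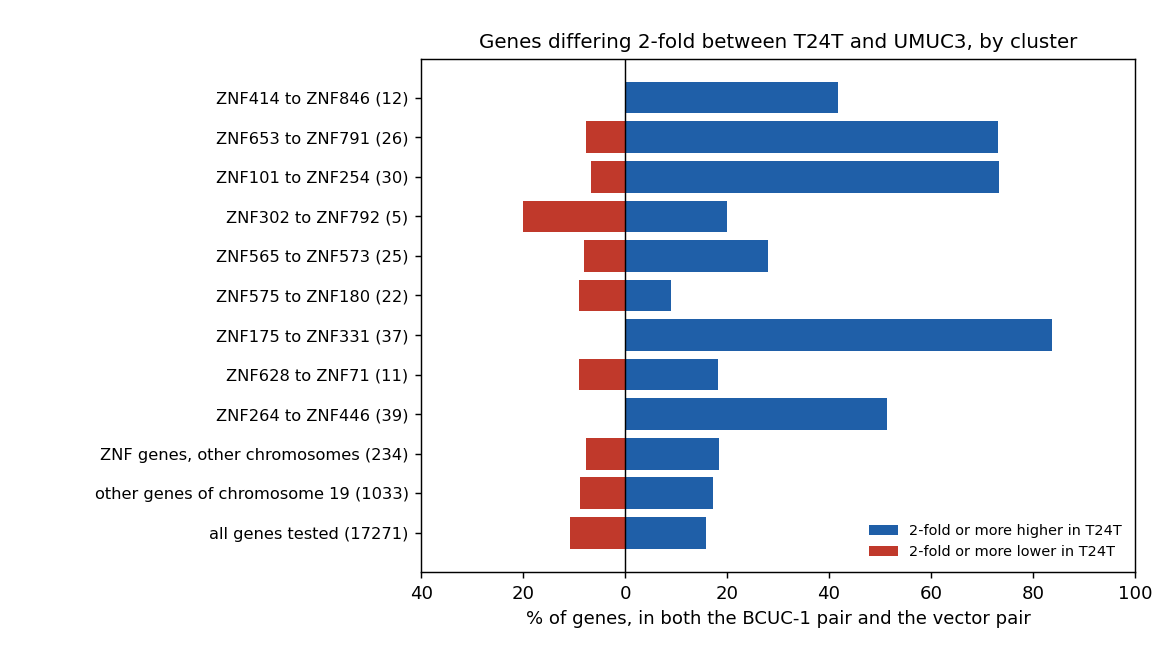
Bars give the share of genes (%) at least 2-fold higher in T24T (blue, to the right) or at least 2-fold lower in T24T (red, to the left) in both the BCUC-1 and the vector pair. Rows are the 9 clusters with 5 or more members (number of members in brackets) and 3 comparison groups; the cluster from ZNF175 to ZNF331 has the longest blue bar, 31 of 37 members, and the cluster from ZNF575 to ZNF180 the shortest, 2 of 22.

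Genes of other names in the same clusters also stood higher in T24T. The 133 other genes inside the 9 clusters had a median of 0.88 (T24T minus UMUC3), and the 900 other genes of chromosome 19 outside them a median of 0.04. The 234 ZNF genes of other chromosomes had a median of 0.36, and 18.4% of them were at least 2-fold higher in T24T. Whether the counting used strand is not stated in the labels, so reads of these genes and of members that overlap them cannot be told apart.

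Near silence did not extend over long stretches. The longest runs of neighbouring near silent members were 3 pairs in the cluster from ZNF175 to ZNF331: ZNF577 with ZNF649, ZNF350 with ZNF615, and ZNF677 with ZNF525. Between the first and the second pair stood ZNF613, with 3.73 and 4.31 RPM in T24T BCUC-1 and vector, against 1.54 and 1.21 RPM in UMUC3. ZNF845, whose listed start lay 3.07 kb from that of ZNF525 on the chromosome, had 14.5 and 14.5 RPM in T24T and 5.50 and 6.45 RPM in UMUC3. The RefSeq start of ZNF525 lay 35030 bases inside the gene as listed, and that of ZNF845 at its listed start. By RefSeq these 2 starts were thus farther apart. In T24T, ZNF229 stood beside ZNF180, which had 13.6 and 13.6 RPM in T24T and 13.5 and 16.8 RPM in UMUC3. Silent and transcribed genes thus stood side by side.

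At the wider limit of 4-fold, runs of 3 or more neighbours were found in UMUC3 at 3 places. ZNF761, ZNF813 and ZNF331 followed each other over 148 kb, with ratios of T24T to UMUC3 of 24.03 (17.6 to 33.7), 46.1 (28.95 to 78.1) and 627. ZNF440, ZNF439 and ZNF69 stood side by side, and ZNF440 still had 4.27 and 3.21 RPM in UMUC3 BCUC-1 and vector. ZNF468, ZNF320, ZNF888 and ZNF321P formed a run of 4 over 105 kb. In this run 99.2% of the 50-base windows of ZNF468 and 93.4% of those of ZNF320 also occurred in another ZNF-named gene. Such a gene can be a duplicated copy or an entry that overlaps at the same place, so the reads may not be particular to 1 gene. In T24T the longest run at 4-fold was the pair ZNF844 and ZNF788.

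Genes that start back to back were compared because their promoters overlap. ZNF829 and ZNF568 start 38 bases apart on opposite strands. ZNF829 had 10.8 and 11.6 RPM in T24T BCUC-1 and vector, against 0.264 and 0.151 RPM in UMUC3, a ratio of 55.0 (29.7 to 115). ZNF568, whose mouse relative Zfp568 represses a placental transcript of Igf2, had 9.07 and 9.46 RPM in T24T, against 0.352 and 0.0755 RPM in UMUC3, a ratio of 45.6 (24.6 to 95.8). Both genes of the pair were lower in the same line. The other 3 such pairs of members also differed with the same sign, ZNF529 with ZNF382 being lower in T24T, and ZNF790 with ZNF345 and ZNF585B with ZNF383 higher. With 84.3% of all members higher in T24T, members often share a sign whatever their starts.

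A further 18 tested partners were not members, and 15 of them differed between the lines with the same sign as the member and 3 with the opposite sign. Of all members 84.3% were higher in T24T, and of the other genes inside the 9 clusters 81.2%. Like signs are therefore common among these genes whatever their starts. Of the 18, 7 were at least 2-fold higher in T24T, 3 of these at least 4-fold, and 5 were lower in T24T. The 3 past 4-fold were chosen for naming after their values were seen. ZNF528-AS1, whose start is 83 bases from that of ZNF528, had 5.51 and 6.88 RPM in T24T and 0.0440 and 0 RPM in UMUC3. The noncoding partner of ZNF302, 58 bases away, had 2.50 and 2.83 RPM in T24T and 0 and 0.113 RPM in UMUC3. ZIK1, a zinc finger gene that starts back to back with ZNF416, had 6.02 and 6.42 RPM in T24T and 0.0880 and 0.264 RPM in UMUC3. ZNF416 itself differed less, by 1.22 on the log2 scale, so a shared start did not always go with a shared level.

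Features that the rule did not use overlapped widely between near silent and other members. A KRAB pattern was found in 11 of the 12 proteins low in UMUC3, in 3 of the 4 low in T24T and in 165 of the 200 other coding members. The zinc finger pattern occurred a median of 10.5, 14 and 12.5 times in those groups. The median promoter held 22 CpG (range 8 to 34, 11 genes) in members low in UMUC3, 19.5 in those low in T24T and 20 in the rest. By promoter CpG, the 49 members with the fewest (2 to 14 CpG) had a median line difference of 1.33 and the 49 with the most (26 to 40 CpG) of 0.88, and each group held 3 of the genes low in UMUC3. The 179 members with a KRAB pattern had a median difference of 1.20, and the 37 coding members without one a median of 0.51.

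Per length, the most abundant member was ZNF146, which encodes a protein made of fingers alone. It had 31.9 and 31.6 RPKM in T24T BCUC-1 and vector and 30.7 and 39.1 RPKM in UMUC3, so the lines overlapped. ZNF320 followed with 11.4 and 12.7 RPKM in T24T and 1.99 and 1.96 RPKM in UMUC3, and ZNF428 with 3.76 and 3.89 RPKM in T24T and 9.78 and 10.4 RPKM in UMUC3. The other 5 of the 8 most abundant were ZNF580, ZNF121, ZNF888, ZNF45 and ZNF700, with mean levels of 6.39, 6.31, 5.72, 5.62 and 5.58 RPKM over the libraries. The pseudogene ZNF702P had 9.33 and 9.51 RPKM in T24T and 0.932 and 0.902 RPKM in UMUC3. The most abundant members thus differed in direction between the lines.

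Other members with the largest differences of their clusters were higher in T24T. ZNF699 had 6.49 and 7.22 RPM in T24T and 1.23 and 1.36 RPM in UMUC3, and ZNF558 had 18.7 and 19.8 RPM in T24T and 5.72 and 5.28 RPM in UMUC3. ZNF784 had 1.53 and 1.61 RPM in T24T and 0.528 and 0.566 RPM in UMUC3. ZNF625 had a ratio of 17.9 (10.5 to 33.3), but 77.5% of its 50-base windows also occurred in another ZNF-named gene. At the edge of the rule, ZNF844 and ZNF497 were just inside with highest levels of 1.06 and 1.09 RPM, and ZNF154 and ZNF233 just outside with 0.887 and 0.845 RPM.

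No member passed the test of BCUC-1 against vector. Limma on log2(RPM + 0.1), fitted over all 17271 genes with line as a block, called 0 of the 223 members at an adjusted p of 0.05, against 0.0463% of all genes. The smallest adjusted p of a member was 0.820, for ZNF788 and ZNF85. At an unadjusted p of 0.05, 6 of the 223 members passed, a smaller share than the 4.56% of all genes. Limma-voom on the recovered reads called 0 members, with 2 at that unadjusted p. The fit left 1 residual degree of freedom, and a p above the threshold does not show that levels were equal.

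The members moved little within each line. In T24T the median change with BCUC-1 was -0.047 on the log2 scale, with 82 members higher and 139 lower (62.3%), against 56.5% of all genes lower. In UMUC3 the median was -0.020, with 101 members higher and 116 lower (52.0%), against 42.2% of all genes. Summed over the members, the ratio of BCUC-1 to vector was 0.964 (0.953 to 0.974) in T24T and 0.967 (0.954 to 0.981) in UMUC3. Of 177 members with at least 50 reads in each pair, 90 changed with the same sign in both lines. Like and unlike signs were thus about equally common, and the share of all genes with like signs is not given here.

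None of the 216 members with at least 50 reads in the T24T pair differed 1.5-fold, and their changes ranged from -0.54 to 0.43. Over all genes 0.345% were 1.5-fold higher and 1.33% 1.5-fold lower in that pair. In the UMUC3 pair 184 members had at least 50 reads, and 3 were 1.5-fold higher (all genes 1.73%) and 1 was 1.5-fold lower (all genes 0.795%). The 1 lower was ZNF85, with 42 reads in UMUC3 BCUC-1 and 103 in UMUC3 vector, a ratio of 0.475 (0.324 to 0.687). In the T24T libraries 215 and 221 reads gave a ratio of 0.977 (0.806 to 1.18), and limma gave a change over both lines of -0.53 (SE 0.20, adjusted p 0.820). The 3 higher were ZNF490, with 35 and 23 reads in UMUC3 BCUC-1 and vector, ZNF653, with 32 and 22, and ZNF823, with 42 and 30. With so few reads their ratios of 1.77 (1.02 to 3.14), 1.70 (0.955 to 3.06) and 1.63 (0.998 to 2.70) are wide, and in T24T their ratios were below 1. Of the exonic bases of ZNF490, 61.3% overlapped another listed gene.

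Changes that ran the same way in both lines were small. Upward, ZNF524 had 49 and 36 reads in T24T BCUC-1 and vector, against 32 and 25 in UMUC3, with ratios of 1.37 (0.871 to 2.16) and 1.49 (0.857 to 2.63). ZNF57, ZNF461, ZNF565 and ZNF417 followed, with T24T ratios between 1.13 and 1.18 and UMUC3 ratios between 1.14 and 1.40. Downward, ZNF460 had 52 and 71 reads in T24T, against 23 and 36 in UMUC3, with ratios of 0.735 (0.504 to 1.07) and 0.745 (0.421 to 1.29). ZNF93, which binds LINE elements, had ratios of 0.784 (0.627 to 0.978) and 0.777 (0.551 to 1.09). ZNF675, an inhibitor of TRAF6 signalling, had ratios of 0.873 (0.755 to 1.01) and 0.775 (0.614 to 0.975), and ZNF573 and ZNF493 were also lower in both lines. Limma gave each of these 10 genes an adjusted p of 1.00.

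In T24T alone, the largest changes upward after ZNF524 were those of ZNF296, ZNF805, ZNF71 and ZNF114, at 0.38, 0.35, 0.33 and 0.30 on the log2 scale, and the last 3 were lower in UMUC3 BCUC-1 than in UMUC3 vector. Downward they were those of ZNF682, ZNF285, ZNF429, ZNF460 and ZNF490, at -0.54, -0.51, -0.45, -0.43 and -0.41. ZNF682 had 108 reads in T24T BCUC-1 and 159 in T24T vector, a ratio of 0.682 (0.529 to 0.876), and 0 in both UMUC3 libraries. In UMUC3, after ZNF85, the lower members were ZNF681, ZNF420, ZNF573 and ZNF566, at -0.56, -0.49, -0.45 and -0.43, and ZNF446 stood at 0.55. ZNF420, which represses p53 targets, had 136 reads in UMUC3 BCUC-1 and 224 in UMUC3 vector, a ratio of 0.708 (0.568 to 0.880), against 1.03 (0.839 to 1.27) in T24T.

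The UMUC3 changes moved with base composition. Over all genes with a GC value, the median change with BCUC-1 in UMUC3 was -0.16 in the 1409 genes of lowest transcript GC content (up to 38.4%) and 0.20 in the 1408 of highest (from 61.3%). The 39 members among the lowest had a median of -0.15 and the 13 among the highest a median of 0.27. In T24T the same groups of genes stood at -0.033 and -0.037 over all genes. With this trend removed, the members' median was -0.025 in T24T and 0.029 in UMUC3, and the change of ZNF85 in UMUC3, whose transcript has 35.9% GC, was -0.85. The changes of ZNF681, ZNF420 and ZNF566 were then -0.37, -0.40 and -0.29. The median GC content of the members was 42.2%, against 47.9% over all genes with a value.

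**Figure D5:**
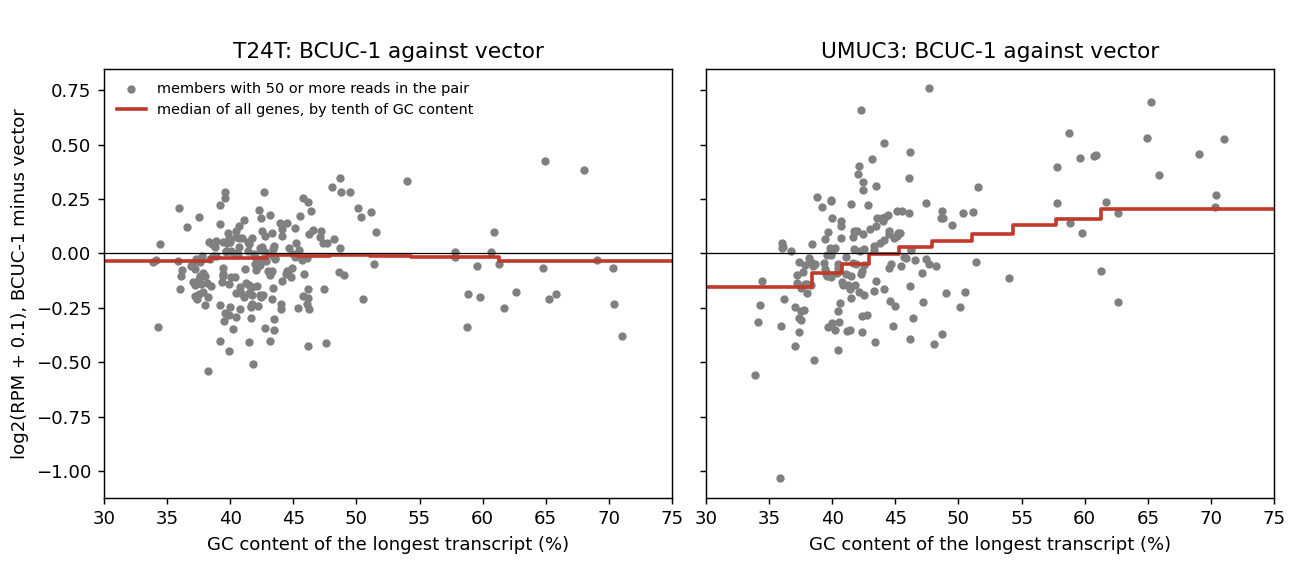
Each point is a member with at least 50 reads in the pair, with the GC content of its longest transcript (%) on the x axis and the change in log2(RPM + 0.1), BCUC-1 minus vector, on the y axis, for T24T (left) and UMUC3 (right). The red step line is the median of all genes in each of 10 equal groups by GC content; it is near 0 throughout in T24T and climbs in UMUC3, and the members lie around it.

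The partners of KRAB zinc finger proteins and regulators of heterochromatin were read from a list of 40 genes. Of these, 39 were measured, and limma called 0 at an adjusted p of 0.05. At an unadjusted p of 0.05, 1 of the 39 passed, against 4.56% of all genes. That gene was TRIM28, with 60.5 and 56.7 RPKM in T24T BCUC-1 and vector and 57.3 and 47.5 RPKM in UMUC3 BCUC-1 and vector, a change over both lines of 0.18 on the log2 scale (limma, adjusted p 0.907). SETDB1 had 4.88 and 5.43 RPKM in T24T and 5.01 and 4.50 RPKM in UMUC3. ZNF274, a member that recruits SETDB1 to the 3′ ends of zinc finger genes, had 3.03 and 3.13 RPKM in T24T and 2.45 and 2.53 RPKM in UMUC3. TRIM28, SETDB1 and ZNF274 thus differed between the lines by 0.17, 0.12 and 0.31 on the log2 scale, T24T minus UMUC3.

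Between the lines, 28 of the 39 were higher in T24T and 11 lower, with a median of 0.31, against 0.14 over all genes. At least 2-fold higher in T24T in both pairs were 3 (7.69%), a smaller share than the 15.9% of all genes, and none was 2-fold lower. ATRX, a chromatin remodeller that keeps repeats silent, had 12.8 and 13.5 RPKM in T24T BCUC-1 and vector and 4.39 and 4.31 RPKM in UMUC3. DNMT3B, a DNA methyltransferase, had 5.35 and 5.56 RPKM in T24T and 2.66 and 2.44 RPKM in UMUC3, and SUV39H1, a histone methyltransferase, had 8.14 and 7.74 RPKM in T24T and 3.93 and 3.79 RPKM in UMUC3. The lowest difference in the list, -0.97 on the log2 scale, was that of KDM4C, a histone demethylase, with 1.12 and 1.28 RPKM in T24T and 2.46 and 2.24 RPKM in UMUC3. FAM208A, the TASOR subunit of the HUSH silencing complex, followed at -0.56, with 6.44 and 6.30 RPKM in T24T and 9.01 and 9.75 RPKM in UMUC3. Their part in the levels of the zinc finger genes was not tested. ZFP57 is not analysed here.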

How the data were processed

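RNA was sequenced from T24T and UMUC3 cells stably carrying BCUC-1 or vector, 1 library each, and columns were matched to samples by title. RPKM per gene was deposited, which the authors scaled by gene length and assigned reads, and, per the file headers, a gene length in bases (unit "other"). The submitters' processing notes name Bowtie 0.12.2. Its role, the genome build, the annotation and any strand setting: not given in the sources used here. Start or end matched GENCODE 29 on GRCh38 for 219 of the 223 members, so coordinates are given on that build.

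RPM was RPKM times length over 1000. These values were whole reads within 0.001 reads for all genes, so reads and depths were recovered. Differences are on log2(RPM + 0.1). BCUC-1 was tested with limma 3.58.1 (R 4.3.3) with an intensity trend and line as a block, two-sided, Benjamini-Hochberg adjusted. The fit covered genes of at least 1 RPM in any library. The same fit was also run on simulated counts with known 2-fold changes and no line effect. Such a run does not give the error rate or power of the test in these data. Within a line and between lines no test was made. Ratios carry exact (Clopper-Pearson) 95% intervals for counting error (Scipy 1.17.1, Python 3.11.15); such reads carry no molecular identifiers and may be copies. GC content, overlap, shared 50-base windows, and the finger and KRAB patterns come from GENCODE 29, and promoters from RefSeq. Shared windows were sought only in other ZNF-named genes, on either strand, and these include entries that overlap at the same place.

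The members and lists were chosen with earlier results of these data known. Named were the 12 members of largest line difference each way (at least 2 RPM in the higher line), the 8 of highest mean RPKM, the 5 largest BCUC-1 changes each way in a line or shared (50 reads in the pair), the 2 largest line differences per long cluster, runs, threshold neighbours and ZNF274; ZNF702P, ZNF613, ZNF845, ZNF180 and the back-to-back partners were added after their values were seen. Other settings covered pseudocount, scale, filter, normalization, GC content and tool.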

Additional observations from a re-analysis of the deposited data

Results flagged for a closer look

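In 4 members the change with BCUC-1 went one way in T24T and the other way in UMUC3, with both counting intervals clear of 1. The share of all genes that meet these limits was not counted, so the 4 cannot be called many or few. The difference between the lines was not tested, since an interaction leaves no residual degree of freedom. ZNF627 had a ratio of BCUC-1 to vector of 0.754 (0.607 to 0.936) in T24T and of 1.36 (1.01 to 1.85) in UMUC3. ZNF865 had a ratio of 0.766 (0.642 to 0.914) in T24T and of 1.45 (1.15 to 1.84) in UMUC3. ZNF580 had a ratio of 0.840 (0.732 to 0.963) in T24T and of 1.18 (1.03 to 1.36) in UMUC3, and ZNF446 had a ratio of 0.789 (0.626 to 0.994) in T24T and of 1.48 (1.11 to 1.98) in UMUC3. Transcript GC content was 43.1% for ZNF627, 71.1% for ZNF865, 61.7% for ZNF580 and 58.7% for ZNF446, and with the GC trend removed their log2 changes in UMUC3 were 0.45, 0.30, 0.051 and 0.41. Of the exonic bases of ZNF446, 58.5% overlapped other listed genes.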

How the results depend on the processing

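The number of members called with BCUC-1 stayed at 0 under the 12 other settings tried, while the number of all genes called ran between 0 and 14. The members' median BCUC-1 change in T24T, -0.047, became -0.024 on log2(RPKM + 1), 0 with quantile normalization, -0.011 with equal medians and -0.025 after removal of the GC trend. The UMUC3 median of -0.020 became -0.070 with quantile normalization and -0.064 with equal medians, and turned to 0.029 with the GC trend removed. The median line difference of 1.09 was 1.01 and 0.91 with pseudocounts of 0.5 and 1 RPM, 0.58 on log2(RPKM + 1), 0.92 with quantile normalization, 0.96 with equal medians, 1.07 at a floor of 5 RPM, 1.13 in the vector libraries and 1.06 in the BCUC-1 libraries. Of the 12 members low in UMUC3, 6 had 0 reads in both of its libraries, and 21 members were at least 10-fold lower there. Of the 4 low in T24T, 2 had 0 reads in both of its libraries, and 4 members were at least 10-fold lower there. The shares of all genes that pass the 0-read and 10-fold limits are not given here, so these counts cannot be called many or few. Cluster limits of 250 kb and 1 Mb gave 10 and 8 clusters of 5 or more members. No replicate could be left out with 1 library per group. The fit pairs BCUC-1 with vector within each line, and without this line block limma called 0 of all genes, against 8 with it, and 0 members in both fits.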

Other observations

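The 27 ZNF genes of chromosome 19 under 1 RPM in every library hold further genes that are known for promoter methylation in carcinomas. ZNF154 had 14 and 21 reads in T24T BCUC-1 and vector, against 3 and 11 in UMUC3 BCUC-1 and vector. ZNF671 had 9 and 15 reads in T24T, against 9 and 4 in UMUC3, and ZNF471 had 0 and 0 in T24T, against 1 and 0 in UMUC3. These genes were thus low in both lines. For ZNF154 both T24T libraries lay above both UMUC3 libraries, and for ZNF671 and ZNF471 the libraries of the lines overlapped. With few reads and 1 library per group, a line difference was not settled for any of them. ZNF610 had 7 and 12 reads in T24T, against 0 and 1 in UMUC3, and its neighbour ZNF880 had 5 and 7 in T24T, against 0 and 1 in UMUC3. The pseudogene ZNF849P, which follows ZNF492 along the chromosome, had 0 and 0 reads in T24T, against 9 and 11 in UMUC3, the same order as ZNF492. All of these were picked after their values were seen.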
